A study of Oryza sativa with 12 samples.

Results

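Developing grains of RGB1Ri-5, a rice line in which RGB1 is knocked down by RNA interference, were compared with grains of WYJ8 at 10 days after flowering (DAF). WYJ8 is Wuyujing 8, the wildtype that served as the background. RGB1 codes for the β-subunit of the heterotrimeric G protein, a signalling complex of the plasma membrane. According to the methods, the line carries a hairpin of an RGB1 fragment driven by the maize ubiquitin promoter, which is known to be active in most tissues. The 6 libraries of this stage, 3 for each genotype, are part of a series of 12 libraries that also holds grains of both genotypes at 5 DAF. They were taken by genotype and stage from the sample labels, and both groups are developing grains, called caryopses in the study's text, from panicles whose spikelets had been labelled by flowering date. Whether the husk was removed before RNA extraction is not given in the sources used here. RGB1Ri-5 is 1 transgenic line, so an effect of the knock-down and a property of this line cannot be told apart.

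The grain at this stage is in its filling phase. The endosperm, the starchy tissue that feeds the embryo, then fills with starch and storage proteins, and a small number of transcripts for storage products usually takes up much of its mRNA. Around it lie the maternal layers of the grain and inside it the embryo, and RNA of all of these can enter a grain sample. In such a bulk sample fewer cells of a type and less RNA per cell cannot be told apart. Transcription factors are a small part of this RNA. Families that matter in the grain and in the floret from which it grows are the NF-Y factors, which bind CCAAT boxes, the auxin response factors (ARF), the MADS-box factors that set floral organ and ovule identity, and the SBP, homeodomain, TCP, NAC and AP2/ERF factors.

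Expression was given as FPKM, fragments scaled by the length of the transcript and the number of mapped reads, so levels can be set side by side between genes. Where a library did not list a gene, its value was set to 0 FPKM. Of the 32956 genes listed in at least 1 of the 6 libraries, the 20386 with a mean of at least 1 FPKM were tested with limma on log2(FPKM + 1). Calls needed a log2 fold change, RGB1Ri-5 minus WYJ8, of 1 or more upward or downward, with a Benjamini-Hochberg adjusted p under 0.05. Because of the pseudocount of 1, the change of a gene with a low value is understated.

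Between 28471 and 29171 genes were listed in the RGB1Ri-5 libraries and between 27055 and 27260 in the WYJ8 libraries. The FPKM of a library summed to 543480 to 566500 in RGB1Ri-5 and to 603490 to 618797 in WYJ8. Replicate 2 of RGB1Ri-5 stood nearer to WYJ8 than the other replicates of its group. Over the tested genes its log2 values had Pearson's r of 0.878 to 0.894 with the WYJ8 libraries, while RGB1Ri-5 replicates 1 and 3 had r of 0.694 to 0.779 with them. Within RGB1Ri-5 replicate 2 had r of 0.942 with replicate 1 and 0.888 with replicate 3, and replicates 1 and 3 had r of 0.958. Within WYJ8 r was 0.979 to 0.989. The points of these correlations are genes and not independent replicates. The values of RGB1 were not analysed here, so the knock-down itself was not checked, and markers of endosperm could be checked only through OsNF-YB1, given below. The labels do not say how the replicates were drawn, so p-values measure only the spread between these libraries.

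A few genes made up much of the FPKM of WYJ8 grains and little of that of RGB1Ri-5 grains. The 100 highest genes of each library held 13.5%, 19.3% and 12.9% of the FPKM sum in RGB1Ri-5 (15.2 ± 3.56%, SD, n = 3) and 48.7%, 50.3% and 52.8% in WYJ8 (50.6 ± 2.07%, SD, n = 3). The groups did not overlap, and an exact 2-sided permutation test gave p = 0.1, the smallest p that 3 libraries against 3 can give. The 10 genes with the highest mean in WYJ8 held 0.0705%, 4.74% and 0.0374% of the sum in RGB1Ri-5 and 23.0%, 21.7% and 24.1% in WYJ8. All 10 were called lower in RGB1Ri-5. The 10 genes with the highest mean in RGB1Ri-5 held 3.50%, 3.30% and 3.51% of the sum in RGB1Ri-5 and 5.38%, 6.25% and 5.08% in WYJ8, and 1 gene was among the 10 highest of both groups.

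**Figure D1:**
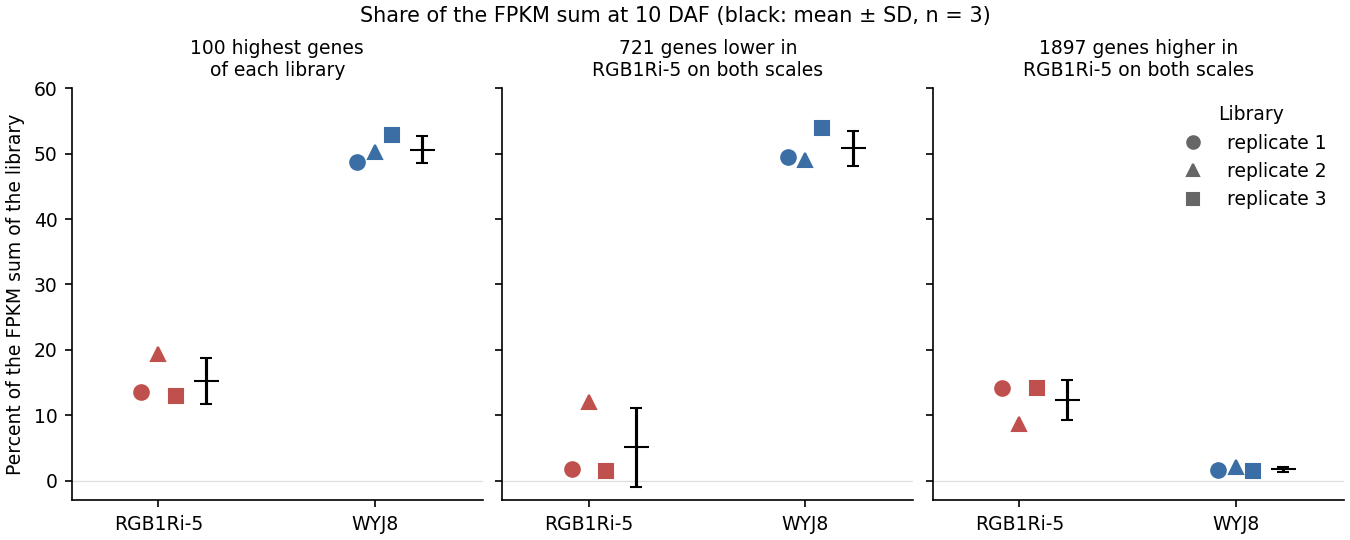
Share of the FPKM sum of each library (y axis, percent) held by its 100 highest genes, by the 721 genes lower in RGB1Ri-5 and by the 1897 genes higher in RGB1Ri-5, with RGB1Ri-5 at the left and WYJ8 at the right of each panel; symbols are replicates and black bars the mean ± SD (n = 3). The 721 lower genes hold 1.79%, 11.998% and 1.44% in RGB1Ri-5 and 49.5%, 49.0% and 53.9% in WYJ8, and RGB1Ri-5 replicate 2 is the RGB1Ri-5 library nearest to WYJ8 in each panel.

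Since FPKM are relative to all reads of a library, such a gap moves all other genes too. The genes other than the 721 lower ones described below summed to 548702, 475630 and 554028 FPKM in RGB1Ri-5 and to 303862, 305871 and 283844 FPKM in WYJ8, and over the tested genes the median was 11.2 ± 1.27 FPKM in RGB1Ri-5 and 5.63 ± 0.192 FPKM in WYJ8 (SD, n = 3 each). Every comparison was therefore made on 2 scales. The first was FPKM as deposited. For the other, each library was divided by the median of the ratios of its genes to the geometric mean of the 6 libraries. These factors were 1.47, 1.25 and 1.51 in RGB1Ri-5 and 0.747, 0.713 and 0.699 in WYJ8. The median log2 fold change of the tested genes was 0.82 as deposited and 0.00 after rescaling. A relative measure cannot say which scale gives the amount of RNA per grain.

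As deposited, 7672 genes were higher in RGB1Ri-5 (37.6% of the tested genes) and 721 were lower (3.54%), together 41.2%. After rescaling, 1897 genes were higher (9.31%) and 1821 were lower (8.93%), together 18.2%, so that 91.4% of the called genes were higher as deposited and 51.0% after rescaling. All 1897 were also higher as deposited, and all 721 were also lower after rescaling. Of the rest, 5775 genes were higher only as deposited, 1100 were lower only after rescaling, and 10893 were called on neither scale. No gene was called in opposite directions. The values of all 3 RGB1Ri-5 libraries lay above those of all 3 WYJ8 libraries for 77.3% of the tested genes as deposited and for 31.7% after rescaling, and below them for 6.02% as deposited and 31.6% after rescaling. Without RGB1Ri-5 replicate 2, 8905 genes were higher and 858 lower as deposited, and 2425 were higher and 2139 lower after rescaling.

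**Figure D2:**
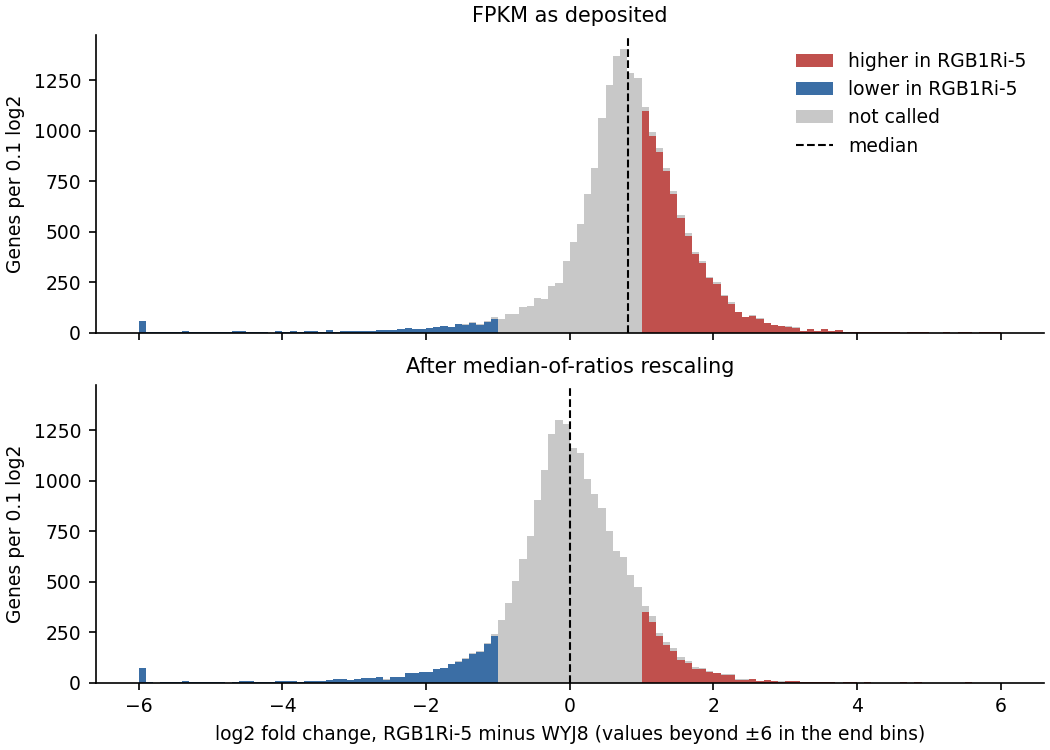
Number of genes per 0.1 log2 (y axis) by log2 fold change, RGB1Ri-5 minus WYJ8 (x axis), with genes called higher in RGB1Ri-5, called lower and not called stacked, and the median as a dashed line. The median lies at 0.82 as deposited and at 0.00 after rescaling, and the lower genes form a long tail on both scales.

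The genes lower in RGB1Ri-5 on both scales were fewer than the higher ones, and a larger part of them had large rescaled changes. Their limits were unlike, though. The 721 had to fall by 1 as deposited, where the median log2 fold change was 0.82. The 1897 had to rise by 1 after rescaling, where the median was 0.00. Both the counts and the part with a change of at least 2 thus depend on this selection. After rescaling alone, 1821 genes were lower and 1897 higher. Of the 721, 588 had a rescaled log2 change of at least 2 downward, 279 of at least 3 and 110 of at least 5, and 46 had a mean of at least 1000 FPKM in WYJ8. Of the 1897 higher genes, 262 had a rescaled change of at least 2, 54 of at least 3 and 7 of at least 5, and 5 had a mean of at least 1000 FPKM in RGB1Ri-5. The median locus span of the lower genes was 2134 bp, against 2886 bp for the higher genes and 3538 bp for all tested genes. They held 1.79%, 11.998% and 1.44% of the FPKM sum in RGB1Ri-5 and 49.5%, 49.0% and 53.9% in WYJ8. The higher genes held 14.1%, 8.70% and 14.1% in RGB1Ri-5 and 1.67%, 2.14% and 1.41% in WYJ8. Replicate 2 was the highest of the RGB1Ri-5 libraries for 616 of the 721 lower genes and the lowest of them for 1576 of the 1897 higher genes.

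The pair of genes with the highest means in WYJ8 among the lower ones shows the size of the gap. LOC_Os05g41970, on chromosome 5 from 24576896 to 24577736 (Release 7 of the MSU annotation, as all positions here), had 67.3, 4266 and 29.2 FPKM in RGB1Ri-5 and 24102, 21895 and 22505 FPKM in WYJ8. Its libraries did not overlap between the groups, yet RGB1Ri-5 replicate 2 lay far above the other replicates of its group. The log2 fold change was -6.79 ± 1.69 (SE, limma adjusted p = 0.00779) as deposited and -7.74 ± 1.79 (adjusted p = 0.0114) after rescaling. Without RGB1Ri-5 replicate 2 it was -8.97 as deposited and -10.00 after rescaling, without replicate 1 -5.99 and -6.90, and without replicate 3 -5.40 and -6.31. Without replicate 1 the rescaled change was not called (limma adjusted p = 0.0605).

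LOC_Os07g10580, on chromosome 7 from 5741848 to 5742542, had 4.33, 1225 and 6.39 FPKM in RGB1Ri-5 and 21536, 19008 and 25597 FPKM in WYJ8, a log2 fold change of -9.23 ± 1.92 (SE, limma adjusted p = 0.00351) as deposited and -10.12 ± 1.99 (adjusted p = 0.00634) after rescaling. Without RGB1Ri-5 replicate 2 these were -11.77 and -12.69, without replicate 1 -7.84 and -8.71, and without replicate 3 -8.08 and -8.91. The table of gene symbols at hand is for another assembly and could not be matched to these identifiers, so neither gene has a name or a function here.

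Among the 10 genes with the highest means in RGB1Ri-5, 3 were higher on both scales, 1 was lower on both (LOC_Os05g41970, whose RGB1Ri-5 mean rests on replicate 2) and 6 were not called alike on both. LOC_Os12g36880, on chromosome 12 from 22599951 to 22601258, had 3684, 1725 and 2395 FPKM in RGB1Ri-5 and 295, 596 and 295 FPKM in WYJ8. The log2 fold change was 2.73 ± 0.41 (SE, limma adjusted p = 0.000889) as deposited and 1.76 ± 0.42 (adjusted p = 0.0127) after rescaling. LOC_Os02g02400, on chromosome 2 from 824849 to 827644, had 1981, 1008 and 2098 FPKM in RGB1Ri-5 and 277, 432 and 243 FPKM in WYJ8, with log2 fold changes of 2.39 ± 0.37 (adjusted p = 0.000999) as deposited and 1.42 ± 0.35 (adjusted p = 0.0149) after rescaling. In both genes RGB1Ri-5 replicate 2 was the lowest of its group and WYJ8 replicate 2 the highest of its own. Leaving out RGB1Ri-5 replicate 1, WYJ8 replicate 1 or WYJ8 replicate 3 ended the rescaled call of either gene (limma adjusted p of 0.0574 to 0.0689), and the change as deposited was called in each of these fits. The gene with the highest mean in RGB1Ri-5, on chromosome 3 from 26460041 to 26461279, was called on neither scale, with 3883, 3878 and 3682 FPKM in RGB1Ri-5 and 3549, 2787 and 4046 FPKM in WYJ8.

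The called genes were spread over all 12 chromosomes, with between 2.80% (chromosome 12) and 4.94% (chromosome 11) of the tested genes lower on both scales and between 6.95% (chromosome 8) and 10.7% (chromosome 4) higher. Within chromosomes some of the lower genes lay side by side. A stretch is here a row of at least 4 neighbouring tested genes that were all called in the same direction on both scales. There were 3 stretches of lower genes with 20 genes in all, and 11 stretches of higher genes with 52 genes in all. They were picked for their calls and are given as a description.

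The longest stretch held 11 lower genes on chromosome 5 from 15266309 to 15465082. Its genes summed to 5.09, 982 and 5.21 FPKM in RGB1Ri-5 and to 19480, 16108 and 28288 FPKM in WYJ8, and their rescaled log2 changes ran from -9.79 to -3.60. On chromosome 7 from 6238910 to 6276821, 5 genes summed to 41.1, 1499 and 16.5 FPKM in RGB1Ri-5 and to 10315, 12671 and 12244 FPKM in WYJ8. On chromosome 12 from 9686914 to 9741206, 4 genes summed to 4.16, 2549 and 5.92 FPKM in RGB1Ri-5 and to 12778, 12687 and 14513 FPKM in WYJ8. In each of these stretches RGB1Ri-5 replicates 1 and 3 were near 0 relative to WYJ8, and replicate 2 lay between them and WYJ8. Neighbouring genes can be near-identical copies that share reads, so the split of FPKM among the genes of a stretch is uncertain, and the sum is less so.

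The windows of 500000 bases given here were picked for having the most lower genes. Their excess over the share of all tested genes follows from this choice. Those on chromosomes 5 and 7 hold stretches described above. On chromosome 5 from 15000001 to 15500000, 13 of the 26 tested genes were lower on both scales, against 3.54% of all tested genes. They held 0.00183%, 0.184% and 0.00161% of the FPKM sum in RGB1Ri-5 and 3.23%, 2.67% and 4.58% in WYJ8. On chromosome 2 from 8000001 to 8500000, 8 of 26 genes were lower, with 0.0140%, 1.67% and 0.00853% of the sum in RGB1Ri-5 and 5.18%, 5.50% and 5.76% in WYJ8. On chromosome 7 from 6000001 to 6500000, 8 of 21 were lower, with 0.0478%, 1.01% and 0.0199% in RGB1Ri-5 and 5.12%, 5.15% and 5.39% in WYJ8. Of the 665 windows with at least 10 tested genes, 9 held 5 or more lower genes and 282 held 0.

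The largest stretch of higher genes held 7 genes on chromosome 12 from 22580777 to 22607315, LOC_Os12g36880 among them. They summed to 5263, 2447 and 3537 FPKM in RGB1Ri-5 and to 479, 941 and 479 FPKM in WYJ8. A second one on that chromosome, from 26912973 to 26961405, held 4 genes that summed to 2128, 1120 and 1434 FPKM in RGB1Ri-5 and to 173, 215 and 143 FPKM in WYJ8. On chromosome 3 from 7914496 to 7966101, 4 genes summed to 730, 463 and 1008 FPKM in RGB1Ri-5 and to 39.5, 51.6 and 32.7 FPKM in WYJ8. In all 11 stretches of higher genes the sums of the groups did not overlap, which largely follows from picking the genes by their calls. RGB1Ri-5 replicate 2 had the lowest sum of its group in each of them.

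**Figure D3:**
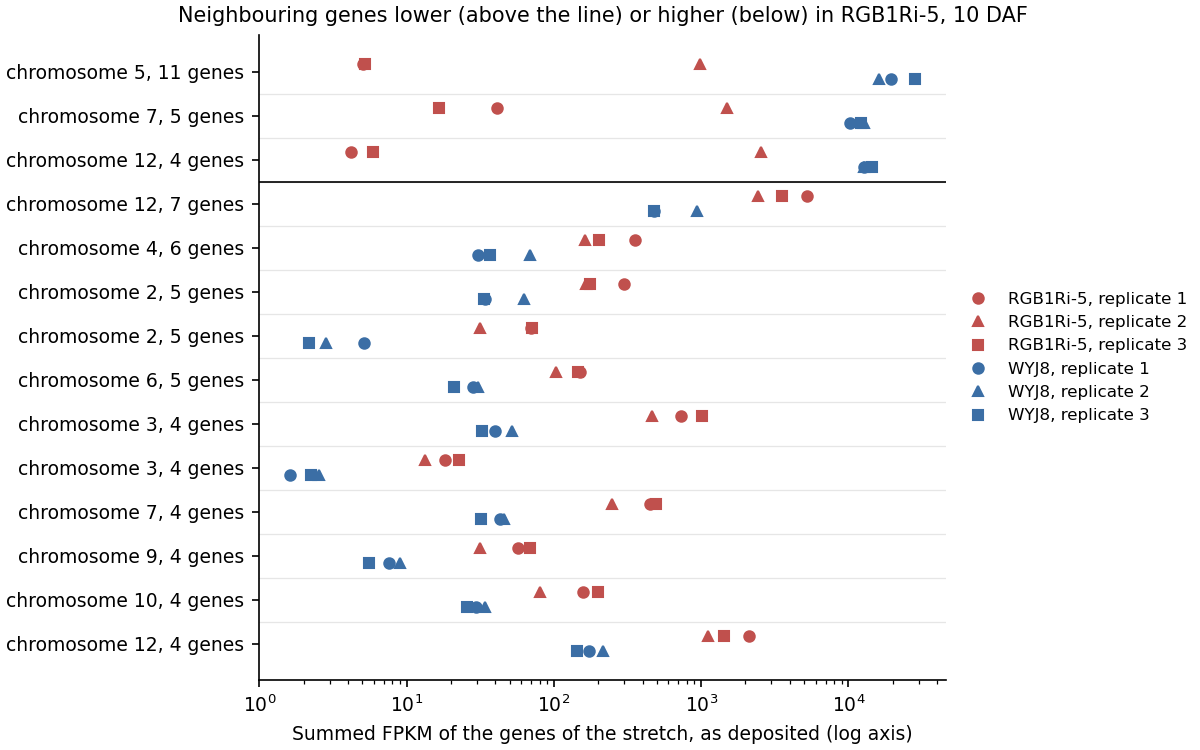
Summed FPKM (x axis, log scale) of the neighbouring genes of each stretch (y axis, chromosome and number of genes) in the 3 RGB1Ri-5 and 3 WYJ8 libraries, with stretches of lower genes above the black line and of higher genes below it. In the chromosome 5 stretch the sums are 5.09, 982 and 5.21 FPKM in RGB1Ri-5 and 19480, 16108 and 28288 FPKM in WYJ8. The groups are apart in every stretch, which largely follows from picking the genes by their calls.

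Some genes were listed in the libraries of 1 genotype only, and no fold change is given for them. Of the tested genes, 68 were listed in no WYJ8 library and 7 in no RGB1Ri-5 library. On both scales, 28 of the 68 were called higher and 6 of the 7 lower. Among all tested genes 9.31% were higher and 3.54% lower on both scales. Genes at 0 in 1 genotype passed the filter only through the other, so the direction of their calls was fixed by the choice. These counts are given as a description. With at least 5 FPKM in each library of the other genotype, 7 genes were listed in no WYJ8 library and 2 in no RGB1Ri-5 library. A gene at 23521935 to 23526719 on chromosome 6 had 6.54, 6.99 and 7.41 FPKM in RGB1Ri-5. At 5 DAF it had 6.23, 6.54 and 6.36 FPKM in RGB1Ri-5 and 0 FPKM in every WYJ8 library. A gene at 13282389 to 13287547 on chromosome 5 had 53.2, 58.0 and 46.7 FPKM in RGB1Ri-5. At 5 DAF it had 30.6, 37.4 and 32.1 FPKM in RGB1Ri-5 and 0.0423, 0.0424 and 0.0397 FPKM in WYJ8. The other way round, a gene at 12665585 to 12666215 on chromosome 6 was listed in no RGB1Ri-5 library and had 10.7, 35.9 and 27.8 FPKM in WYJ8. A pair of overlapping genes on chromosome 1 from 32072448 to 32082488 was listed in no WYJ8 library at 10 DAF, although the higher of the pair had 1557, 1524 and 7186 FPKM in WYJ8 at 5 DAF. In RGB1Ri-5 at 10 DAF it had 8.30, 3765 and 11.5 FPKM. A gene missing from a library may be a failed estimate rather than an absent transcript, for this pair and for the other unlisted genes, and which of these holds was not tested.

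For the transcription factors names were at hand. In its supplement the study lists factors with a predicted binding site in the promoter of OsYUC11, an endosperm gene of auxin synthesis, and 128 genes of that list carry an MSU identifier. The list was made from promoter sequence, not from expression. Of the 128 factors 125 were listed in at least 1 of the 6 libraries and 107 were tested, and 91 had a mean of at least 1 FPKM in both genotypes. As deposited, 62 of the 107 were higher in RGB1Ri-5 (57.9%, against 37.6% of all tested genes) and 3 were lower (2.80%, against 3.54%). After rescaling, 24 were higher (22.4%, against 9.31%) and 4 were lower (3.74%, against 8.93%). Of the 91 with at least 1 FPKM in both genotypes, 16 were higher and 4 lower after rescaling. The share of all tested genes under that limit was not counted, here or for the families below. Such counts thus have no background beside them. The median log2 fold change of the 107 was 1.23 as deposited, where that of all tested genes was 0.82, and 0.36 after rescaling, where that of all tested genes was 0.00. All 24 were higher and 3 of the 4 were lower on both scales. None of these 27 genes overlapped between the groups on either scale. This is not particular to the factors, since it held for 1880 of all 1897 higher and 690 of all 721 lower genes. Replicate 2 was the lowest RGB1Ri-5 library for 23 of the 24 after rescaling, and without it 32 factors were higher and 5 lower.

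**Figure D4:**
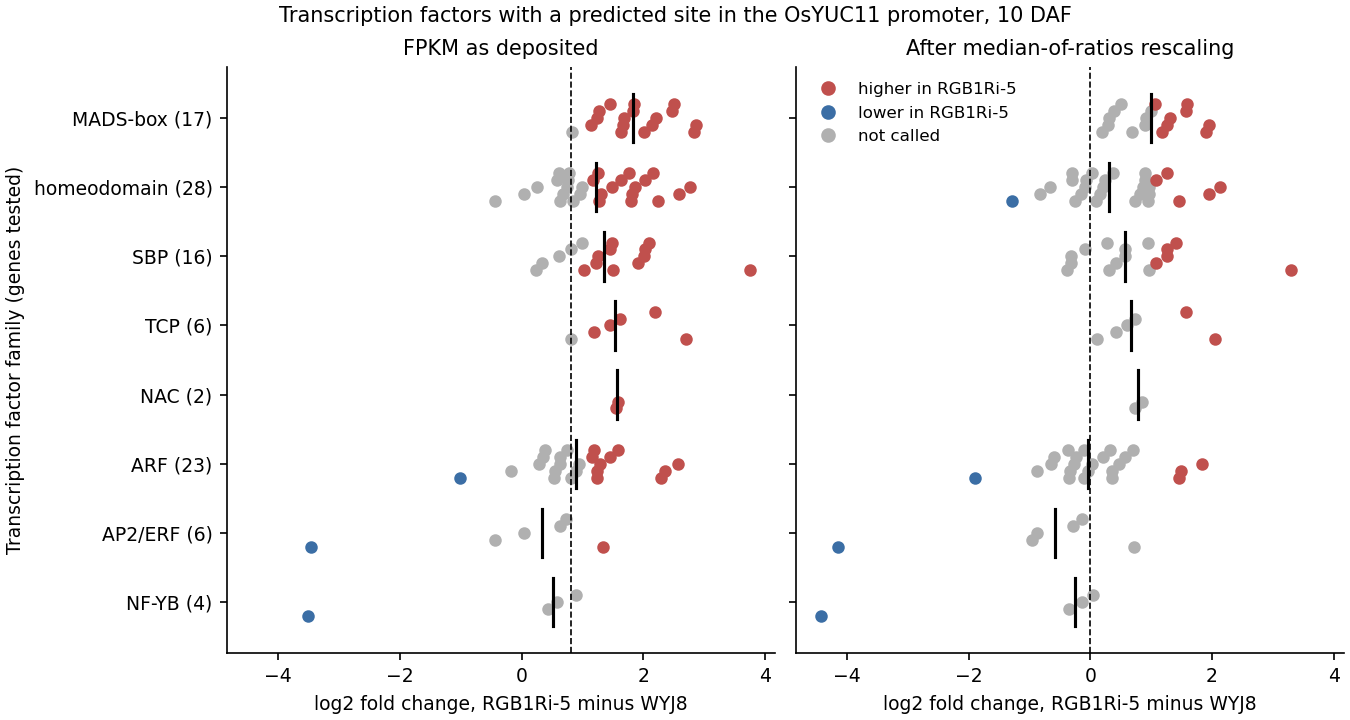
Log2 fold change, RGB1Ri-5 minus WYJ8 (x axis), of each tested factor by family (y axis, number tested in brackets), as deposited at the left and rescaled at the right; black bars are family medians and the dashed line is the median of all tested genes (0.82 as deposited, 0.00 rescaled). The MADS-box median lies at 1.84 as deposited and 0.99 rescaled, and single members of the NF-YB, AP2/ERF and ARF families lie far to the left of their relatives.

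OsNF-YB1 and DREB2C had the 2 largest decreases among the factors on both scales. OsNF-YB1 is a subunit of nuclear factor Y that is known to be made in the endosperm, chiefly in its aleurone layer, and to act in grain filling. NFYB1 (LOC_Os02g49410, chromosome 2 from 30191470 to 30192489) had 17.5, 110 and 8.04 FPKM in RGB1Ri-5 and 331, 320 and 252 FPKM in WYJ8. All RGB1Ri-5 libraries were lower than all WYJ8 libraries, and RGB1Ri-5 replicate 2 was several times the other replicates of its group. Its log2 fold change was -3.50 ± 0.82 (SE, limma adjusted p = 0.00587) as deposited and -4.43 ± 0.87 (adjusted p = 0.00645) after rescaling. It was -4.54 and -5.52 without RGB1Ri-5 replicate 2, and -2.73 and -3.61 without replicate 3, where DREB2C was lower still (-3.05 and -3.70). The study picked this gene and DREB2C, with others, by predicted binding, co-expression with OsYUC11 and lower expression in the line in these same data. Their direction here is therefore not independent evidence. Of these factors the study then followed OsNF-YB1, by its qRT-PCR time course and by binding to the promoter in vitro.

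None of the other NF-YB subunits on the list was called on either scale. NFYB2 had 11.7, 13.6 and 11.2 FPKM in RGB1Ri-5 and 7.26, 4.91 and 6.11 FPKM in WYJ8, with log2 fold changes of 0.90 ± 0.16 as deposited and 0.04 ± 0.17 after rescaling (SE). Without WYJ8 replicate 1 it was called higher as deposited (1.02). NFYB3 (LOC_Os05g38820) averaged 5.43 ± 0.656 FPKM in RGB1Ri-5 and 3.78 ± 0.667 FPKM in WYJ8, and NFYB4 (LOC_Os05g49780) averaged 3.90 ± 0.359 FPKM in RGB1Ri-5 and 2.29 ± 0.539 FPKM in WYJ8 (SD, n = 3 each). The supplement describes these last genes with the numbers 3 and 4 exchanged, and its locus names are used here. All 4 subunits share the same predicted sites in the OsYUC11 promoter, most of which differ from the CCAAT box by at least a letter. Only the exact box is shown here, because it is the letter pattern that NF-Y reads. The supplement lists it on both strands, written here as it gives them.
NF-YB site, plus strand: CCAAT
NF-YB site, minus strand: ATTGG

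DREB2C (LOC_Os08g45110, chromosome 8 from 28321215 to 28322394) is an AP2/ERF factor of the group that binds dehydration-responsive elements. It had 0.746, 6.68 and 0.541 FPKM in RGB1Ri-5 and 31.0, 27.4 and 29.6 FPKM in WYJ8. RGB1Ri-5 was lower in every library, and replicate 2 again stood above replicates 1 and 3. Its log2 fold change was -3.46 ± 0.57 (SE, limma adjusted p = 0.00125) as deposited and -4.15 ± 0.55 (adjusted p = 0.00177) after rescaling, and -4.21 and -4.82 without RGB1Ri-5 replicate 2.

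Of the 6 tested AP2/ERF factors, 1 was higher (DREB1A) and 1 lower as deposited (37.6% and 3.54% of all tested genes), and DREB2C was the only one called after rescaling with all libraries. Without RGB1Ri-5 replicate 2, WYJ8 replicate 2 or WYJ8 replicate 3, 2 members were lower after rescaling, and without RGB1Ri-5 replicate 3, 1 was higher. DREB2D, named after its values were seen, had 1.00, 1.43 and 0.686 FPKM in RGB1Ri-5 and 2.05, 1.49 and 1.65 FPKM in WYJ8, and was called on neither scale (log2 fold change -0.43 ± 0.19 as deposited and -0.96 ± 0.18 after rescaling, SE). DREB2A had 12.3, 9.05 and 11.5 FPKM in RGB1Ri-5 and 5.81, 6.52 and 6.15 FPKM in WYJ8, and DREB2B had 24.1, 19.3 and 25.1 FPKM in RGB1Ri-5 and 16.5, 12.9 and 13.6 FPKM in WYJ8. Both were called on neither scale, with log2 fold changes of 0.73 ± 0.14 and 0.63 ± 0.15 as deposited and of -0.13 ± 0.11 and -0.28 ± 0.10 after rescaling (SE). The locus of DREB2A overlaps that of another tested gene, so reads of the pair may be shared. A member named Os01g0693400 had nearly the same level in both groups as deposited, with 17.7 ± 1.28 FPKM in RGB1Ri-5 and 17.3 ± 2.44 FPKM in WYJ8 (SD, n = 3 each). The 5 tested DREB members, DREB1A and DREB2D among them, share a predicted site on the minus strand. DREB2A, DREB2B and DREB2C, but not DREB1A or DREB2D, also have the following site. Its capitals are the supplement's own and mark the core of the match.
DREB2A, DREB2B and DREB2C site: cCACCGaaa

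The auxin response factors, which bind auxin-responsive elements in promoters and switch genes on or off with the hormone, went both ways. Of 23 tested, 10 were higher and 1 was lower as deposited, and 3 were higher and 1 was lower after rescaling. The higher ones were 43.5% of the family as deposited, against 37.6% of all tested genes, and 13.0% after rescaling, against 9.31%. The family median log2 change was 0.90 as deposited and -0.04 after rescaling, near that of all tested genes. ARF14 (LOC_Os05g43920) was the lower one, with 6.84, 9.12 and 6.51 FPKM in RGB1Ri-5 and 14.6, 15.8 and 18.1 FPKM in WYJ8. Its log2 fold change was -1.02 ± 0.15 (SE, limma adjusted p = 0.000876) as deposited and -1.89 ± 0.19 (adjusted p = 0.000797) after rescaling. As deposited it passed the fold limit narrowly and lost its call without RGB1Ri-5 replicate 1, RGB1Ri-5 replicate 3 or WYJ8 replicate 3 (-0.97, -0.94 and -0.94).

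ARF12 (LOC_Os04g57610) went the other way, with 43.0, 23.7 and 60.7 FPKM in RGB1Ri-5 and 6.36, 8.51 and 6.04 FPKM in WYJ8. It rose by 2.36 ± 0.32 on the log2 scale (SE, limma adjusted p = 0.00061) as deposited and by 1.46 ± 0.27 (adjusted p = 0.00496) after rescaling. ARF6 and ARF10 were the other members higher on both scales. The most abundant members of the family were not called after rescaling. ARF24 had 93.8, 98.5 and 90.8 FPKM in RGB1Ri-5 and 83.1, 64.4 and 73.7 FPKM in WYJ8, and ARF4 had 81.2, 69.4 and 95.0 FPKM in RGB1Ri-5 and 52.0, 51.6 and 53.4 FPKM in WYJ8. ARF25 averaged 51.3 ± 2.13 FPKM in RGB1Ri-5 and 27.2 ± 2.50 FPKM in WYJ8 (SD, n = 3 each). None of these 3 was called on either scale, and the log2 fold changes of ARF24 and ARF4 were positive as deposited (0.36 and 0.63) and negative after rescaling (-0.60 and -0.33). ARF23 had 71.7, 54.8 and 86.7 FPKM in RGB1Ri-5 and 32.7, 30.4 and 29.9 FPKM in WYJ8, and was higher as deposited only (log2 fold change 1.15 as deposited, 0.99 and no longer called without RGB1Ri-5 replicate 3, and 0.20 rescaled). All 23 members, ARF14 and the 3 higher ones among them, have the same predicted site on the minus strand, the letters of the auxin-responsive element read from the opposite strand.
ARF site: gAGACA

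Of the 8 families the MADS-box factors had the largest share of members higher in RGB1Ri-5 after rescaling. As deposited 16 of 17 tested were higher and none was lower, and after rescaling 8 were higher and none was lower. These were 94.1% of the family as deposited, against 37.6% of all tested genes, and 47.1% after rescaling, against 9.31%. The median log2 fold change of the 17 was 1.84 as deposited and 0.99 after rescaling, and all 17 rescaled changes were above 0 (0.18 to 1.95). In 13 of the 17 the 3 RGB1Ri-5 libraries lay above the 3 WYJ8 libraries after rescaling, where 31.7% of all tested genes did. Of the 15 with at least 1 FPKM in both genotypes, 7 were higher after rescaling. Many of these genes are known from the floret, where they set the identity of the spikelet, the floral organs and the ovule, whose coats become the maternal layers of the grain. The level of other genes of those layers was not analysed here, so the part of maternal tissue in these values was not tested.

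MADS6, an AGL6-like gene of floral meristem and organ identity, had the largest rescaled increase of the family. It had 72.2, 42.7 and 98.0 FPKM in RGB1Ri-5 and 8.11, 10.9 and 6.53 FPKM in WYJ8. The increase was 2.87 ± 0.31 on the log2 scale (SE, limma adjusted p = 0.000345) as deposited and 1.95 ± 0.26 (adjusted p = 0.00178) after rescaling. Its paralog MADS17 had 55.7, 34.2 and 60.7 FPKM in RGB1Ri-5 and 7.10, 11.0 and 6.33 FPKM in WYJ8, with a rescaled increase of 1.57 ± 0.23 (adjusted p = 0.00236). The pair of APETALA1/FRUITFULL-like genes rose too. MADS15 had 123, 73.8 and 140 FPKM in RGB1Ri-5 and 12.5, 18.6 and 12.7 FPKM in WYJ8, a rescaled increase of 1.90 ± 0.22 (adjusted p = 0.00121). MADS14 had 52.9, 33.3 and 48.6 FPKM in RGB1Ri-5 and 8.43, 10.3 and 7.57 FPKM in WYJ8, a rescaled increase of 1.30 ± 0.15 (adjusted p = 0.00124), but its locus overlaps that of another tested gene, so reads of the pair may be shared.

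MADS58, which with MADS3 is a floral C-class gene of stamens and carpels, had 77.5, 65.8 and 81.9 FPKM in RGB1Ri-5 and 12.7, 16.0 and 9.08 FPKM in WYJ8, and rose by 1.58 ± 0.18 (SE, limma adjusted p = 0.00118) after rescaling. MADS56, a SOC1-like gene of flowering time, had 31.4, 17.7 and 40.9 FPKM in RGB1Ri-5 and 5.72, 7.58 and 4.11 FPKM in WYJ8, and rose by 1.26 ± 0.27 (adjusted p = 0.00894). In all of these genes replicate 2 was the lowest RGB1Ri-5 library and the highest WYJ8 library.

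Other abundant MADS-box genes, MADS7, MADS8, MADS13, MADS21 and MADS29, were called as deposited only. MADS8, a SEPALLATA-like gene, had 278, 216 and 306 FPKM in RGB1Ri-5 and 78.4, 105 and 71.9 FPKM in WYJ8, and its log2 fold change was 1.64 ± 0.20 (SE, limma adjusted p = 0.000459) as deposited and 0.68 ± 0.18 (adjusted p = 0.0186) after rescaling, below the fold limit. The related MADS7 had 224, 159 and 251 FPKM in RGB1Ri-5 and 51.5, 72.8 and 48.9 FPKM in WYJ8, with a rescaled change of 0.89 ± 0.19 that was called without RGB1Ri-5 replicate 2 (1.00) or WYJ8 replicate 2 (1.07). MADS13, a gene of ovule identity, had 101, 73.1 and 121 FPKM in RGB1Ri-5 and 33.1, 41.7 and 30.0 FPKM in WYJ8, and changed by 1.45 ± 0.21 as deposited and by 0.50 ± 0.17 after rescaling. MADS21, of the same ovule class, had 82.2, 67.3 and 80.4 FPKM in RGB1Ri-5 and 35.4, 39.4 and 28.8 FPKM in WYJ8. MADS29, known for the breakdown of the maternal nucellus as the endosperm expands, had 38.1, 30.7 and 34.4 FPKM in RGB1Ri-5 and 14.4, 17.4 and 10.9 FPKM in WYJ8. After rescaling the groups overlapped for both, with log2 fold changes of 0.18 ± 0.13 for MADS21 (adjusted p = 0.254) and 0.31 ± 0.16 for MADS29 (adjusted p = 0.14). The 17 tested members share both of these predicted sites, in which the capitals again mark the core of the match.
MADS-box site, plus strand: cCAAAAaaact
MADS-box site, minus strand: tttttTTTTGg

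**Figure D5:**
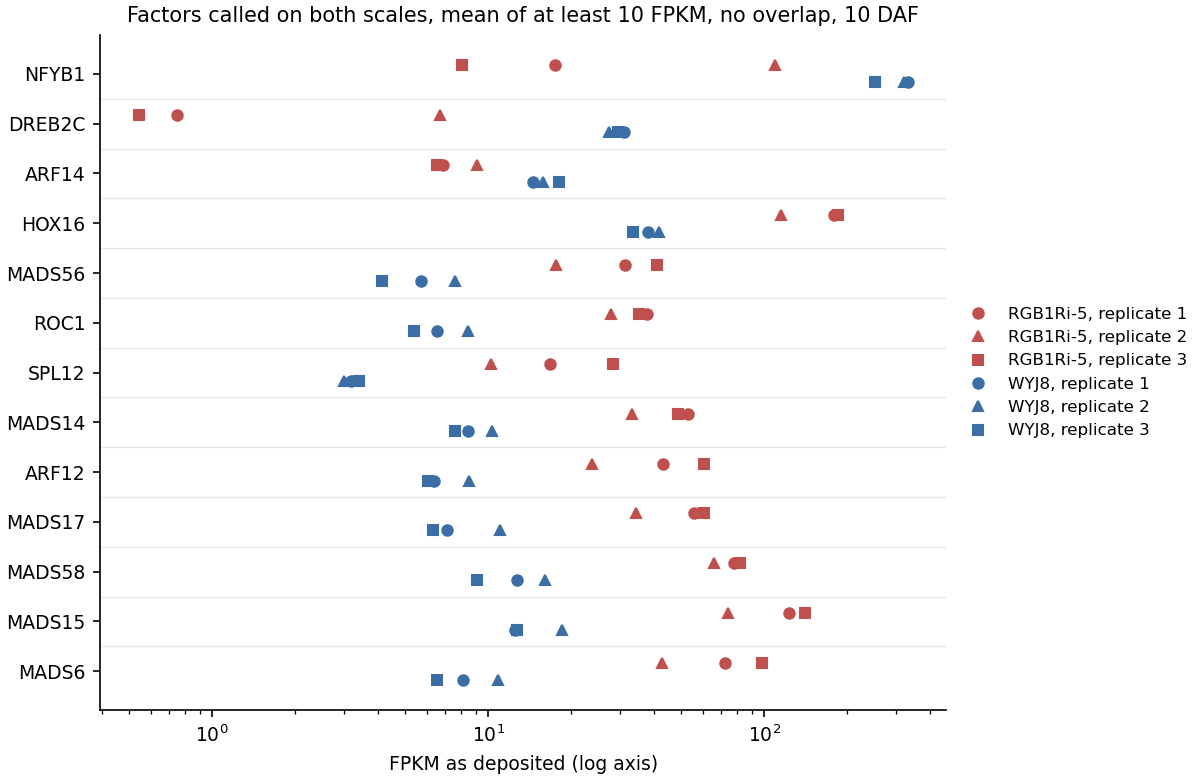
FPKM as deposited (x axis, log scale) of the 13 factors that were called on both scales, had a mean of at least 10 FPKM and did not overlap between the groups (y axis), with RGB1Ri-5 above WYJ8 in each row and symbols for replicates. NFYB1 lies at 17.5, 110 and 8.04 in RGB1Ri-5 and at 331, 320 and 252 in WYJ8, MADS6 lies at 72.2, 42.7 and 98.0 in RGB1Ri-5 and at 8.11, 10.9 and 6.53 in WYJ8, and RGB1Ri-5 replicate 2 (triangle) is the RGB1Ri-5 library nearest to WYJ8 in all 13.

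The SBP factors, which take part in shoot and panicle branching, were mostly higher as deposited. Of 16 tested, 11 were higher and none lower as deposited, and 5 were higher and none lower after rescaling, with median log2 changes of 1.35 and 0.57. The shares of higher members were 68.8% as deposited and 31.2% after rescaling, against 37.6% and 9.31% of all tested genes. Without RGB1Ri-5 replicate 3 only 3 of the 16 were higher after rescaling. With all libraries, 3 of the 11 with at least 1 FPKM in both genotypes were higher after rescaling. SPL12 had 16.7, 10.2 and 28.4 FPKM in RGB1Ri-5 and 3.20, 3.01 and 3.41 FPKM in WYJ8, and rose by 1.26 ± 0.27 (SE, limma adjusted p = 0.00811) after rescaling, a call lost without RGB1Ri-5 replicate 3 (0.96). SPL10, chosen after its values were seen, had 16.2, 7.20 and 16.5 FPKM in RGB1Ri-5 and was listed in none of the 3 WYJ8 libraries. The most abundant member, SPL15, had 90.0, 69.4 and 98.1 FPKM in RGB1Ri-5 and 34.0, 35.2 and 35.8 FPKM in WYJ8, and was higher as deposited only (log2 fold change 1.26 ± 0.14, and 0.31 ± 0.11 after rescaling). SPL1 averaged 19.5 ± 4.72 FPKM in RGB1Ri-5 and 6.37 ± 0.759 FPKM in WYJ8, and was likewise higher as deposited only. SPL6 averaged 40.8 ± 1.79 FPKM in RGB1Ri-5 and 26.3 ± 1.91 FPKM in WYJ8, and SPL9 18.5 ± 3.05 FPKM in RGB1Ri-5 and 10.0 ± 1.02 FPKM in WYJ8 (SD, n = 3 each), and neither was called on either scale. A site with the GTAC core of SBP proteins is shared by 13 of the tested members, SPL10, SPL12 and SPL15 among them.
SBP site: aataaTGTACttaata

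The homeodomain factors were split. Of 28 tested, 15 were higher and none lower as deposited, and 5 were higher and 1 lower after rescaling, with median log2 changes of 1.22 and 0.31. The shares of higher members were 53.6% as deposited and 17.9% after rescaling, against 37.6% and 9.31% of all tested genes. After rescaling, 10 were higher without RGB1Ri-5 replicate 2 and 8 without WYJ8 replicate 2. With all libraries, 3 of the 22 with at least 1 FPKM in both genotypes were higher and 1 was lower after rescaling. HOX16, of the HD-ZIP class I, had 180, 115 and 184 FPKM in RGB1Ri-5 and 37.8, 41.7 and 33.4 FPKM in WYJ8, and rose by 2.03 ± 0.20 (SE, limma adjusted p = 0.000308) as deposited and by 1.08 ± 0.15 (adjusted p = 0.00218) after rescaling. ROC1, of the class IV that is known from the outermost cell layer of the embryo and shoot, had 37.7, 27.8 and 35.1 FPKM in RGB1Ri-5 and 6.53, 8.45 and 5.38 FPKM in WYJ8, a rescaled increase of 1.26 ± 0.16 (adjusted p = 0.00144). HOX20 had 40.1, 27.8 and 43.2 FPKM in RGB1Ri-5 and 10.5, 8.82 and 8.62 FPKM in WYJ8, with a rescaled change of 0.95 ± 0.12 just below the fold limit, which it passed without RGB1Ri-5 replicate 2 (1.06) or WYJ8 replicate 1 (1.01). HOX5 averaged 39.3 ± 8.59 FPKM in RGB1Ri-5 and 16.7 ± 2.56 FPKM in WYJ8 (SD, n = 3 each), higher as deposited only. HOX10, of the class III that acts in vascular and leaf patterning, averaged 23.5 ± 1.49 FPKM in RGB1Ri-5 and 19.5 ± 1.49 FPKM in WYJ8 (SD, n = 3 each) and was called on neither scale, with log2 fold changes of 0.26 ± 0.11 as deposited and -0.67 ± 0.12 after rescaling. ZHD7, chosen after its values were seen, was the lower member. It had 6.28, 4.97 and 9.79 FPKM in RGB1Ri-5 and 12.3, 9.60 and 7.27 FPKM in WYJ8, so the groups overlapped as deposited, and its rescaled log2 fold change was -1.29 ± 0.21 (adjusted p = 0.00349). HOX5, HOX16 and HOX20 share the following site with 5 other tested members.
HD-ZIP site: cAATAAttaaata

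Of the 6 TCP factors, which act in cell proliferation and organ growth, 5 were higher as deposited and 2 after rescaling, with median log2 changes of 1.53 and 0.67. These were 83.3% and 33.3% of the family, against 37.6% and 9.31% of all tested genes. Of the 4 with at least 1 FPKM in both genotypes, none was higher after rescaling. Both rescaled calls, PCF3 and PCF8, were of genes with a mean under 1 FPKM in WYJ8 (0.658 and 0.723). PCF8 had 13.9, 7.46 and 9.13 FPKM in RGB1Ri-5 and 0.373, 1.32 and 0.476 FPKM in WYJ8, and rose by 2.05 ± 0.28 (SE, limma adjusted p = 0.00193) after rescaling. PCF6, the most abundant, had 24.5, 24.6 and 18.3 FPKM in RGB1Ri-5 and 10.1, 4.83 and 5.66 FPKM in WYJ8, and overlapped between the groups after rescaling (log2 fold change 0.74 ± 0.26), and without WYJ8 replicate 1 it was called (1.01). PCF2 averaged 13.1 ± 1.38 FPKM in RGB1Ri-5 and 4.17 ± 0.555 FPKM in WYJ8, and PCF5 7.54 ± 3.36 FPKM in RGB1Ri-5 and 2.55 ± 0.538 FPKM in WYJ8 (SD, n = 3 each). Both were higher as deposited only, and PCF5 lost its call without RGB1Ri-5 replicate 3 (0.92). The 2 tested NAC factors were higher as deposited and not called after rescaling. NAC71 had 17.4, 11.1 and 14.8 FPKM in RGB1Ri-5 and 3.98, 4.48 and 3.86 FPKM in WYJ8, and NAC68 had 8.53, 2.87 and 9.18 FPKM in RGB1Ri-5 and 1.67, 1.79 and 0.968 FPKM in WYJ8. Without RGB1Ri-5 replicate 2, NAC68 was also called after rescaling (1.20).

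The housekeeping gene Ubq (LOC_Os03g13170), with which the study scaled its qRT-PCR values, shows how far the scales differ for a gene of even level. It had 397, 390 and 368 FPKM in RGB1Ri-5 and 388, 364 and 389 FPKM in WYJ8. As deposited the groups overlapped, with a log2 fold change of 0.02 ± 0.15 (SE, limma adjusted p = 0.912). After rescaling all RGB1Ri-5 values lay below all WYJ8 values, with a log2 fold change of -0.95 ± 0.19 (adjusted p = 0.00654), just short of the fold limit, and it passed that limit without RGB1Ri-5 replicate 2 (-1.04). A gene at the same FPKM in both genotypes is thus low in RGB1Ri-5 relative to the median tested gene.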

How the data were processed

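RNA was extracted from grains by genotype and stage, and mRNA libraries were sequenced on an Illumina HiSeq instrument. Per the study's methods and processing notes, the authors filtered the reads, checked them with FastQC, mapped them with TopHat2 2.1.0 to the rice genome of MSU (Release 7) and estimated expression with Cufflinks 2.1.1. The deposited values are FPKM per gene, 1 file for each library. Counts and depths are not part of them, so the depth is unknown and no counting interval is given. The most frequent ratio of values under 0.5 FPKM to those of RGB1Ri-5 replicate 1 was 0.86 to 1.02 in the other libraries, but only 1.96% to 7.64% of such ratios lay at it, so relative depth is known only roughly. Overlapping genes can share reads, and 889 tested genes share their deposited locus with another. Whether the counting used strand is not given in the sources used here.

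Groups came from the sample labels. Genes that averaged 1 FPKM or more across the 6 libraries at 10 DAF were fitted with limma 3.58.1 (R 4.3.3) on log2(FPKM + 1), with group means, a mean-variance trend and Benjamini-Hochberg adjustment over all 20386 genes, as deposited and after median-of-ratios rescaling on the 20039 genes above 0 in every library. The procedure was run on simulated data in which all genes of a group were raised by a common factor besides those changed. The rescaled fit recovered the changed genes, while values as deposited also called many unchanged genes higher and missed most of the lower ones. The rescaling removes such a factor by design, and few genes were changed. The outcome therefore does not say which scale is right for the real libraries, where many more genes were called. The authors' own test needs the mapped reads and was not repeated. Figures were drawn with matplotlib 3.10.9 in Python 3.11.15.

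The factors named by rule are those called on both scales that averaged 10 FPKM or more without overlap (up to 12 in each direction by rescaled change, which gave 10 and 3), up to 4 with the highest mean in each of 8 families, and those the study names with an identifier. DREB1A, ARF6, ARF10 and PCF3 are named besides as called members of their families, and MADS3 only for its class. DREB2D, SPL10 and ZHD7 were named after their values were seen. None of these additions is among the 46 genes whose alternatives are counted below. Of genes without a name at most 2 that rose and 2 that fell are given, the called genes with the highest means. Lists by product name, cell type markers and promoter motifs could not be applied, since the symbol table at hand is for assembly ASM3414082v1 and holds no MSU identifiers. RGB1, OsYUC11 and the starch and sucrose genes were not analysed here. Members and lists were chosen with earlier results of these data known.

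Alternatives were a pseudocount of 0.1, no filter, a mean of at least 5 FPKM, the filter over 12 libraries, a model of all 12 libraries, a replicate block, limma without the trend, no fold limit, unlisted values as missing, other scalings and each library left out in turn.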

Additional observations from a re-analysis of the deposited data

How the results depend on the processing

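The depth of the libraries is unknown, 3 libraries stand for each genotype and 1 line for the knock-down. The scale decides the split of the calls, and the larger changes kept their direction. As deposited, 8393 genes were called. Without a fold limit 16437 genes were called (15236 higher, 1201 lower). With quantile normalization 3444 were called (1791 higher, 1653 lower), of which 52.0% were higher, with an equal total without the 100 highest genes 4347 (3032 higher, 1315 lower), of which 69.7% were higher, and with the upper quartile 3990 (2458 higher, 1532 lower), of which 61.6% were higher. An equal total for every library gave 10623 (9932 higher, 691 lower), of which 93.5% were higher. After rescaling, 3718 genes were called. A pseudocount of 0.1 gave 2880 higher genes, a mean of at least 5 FPKM 1182 lower genes, and no fold limit 10596 genes (5307 higher, 5289 lower). Leaving out 1 library at a time, 7595 to 9763 genes were called as deposited (6957 to 8905 higher, 638 to 858 lower) and 3191 to 4564 after rescaling (1610 to 2425 higher, 1581 to 2139 lower). Of the factors, 59 to 68 were then higher and 2 to 3 lower as deposited, and 22 to 32 higher and 4 to 5 lower after rescaling. The difference in the share of the 100 highest genes, an alternative chosen after seeing the data, ran from -37.4 to -34.2 percentage points.

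With the replicate number as a block, 8319 genes were called as deposited (7625 higher, 694 lower) and 3610 after rescaling (1832 higher, 1778 lower). Deviations of libraries with the same number had r of -0.02, -0.23 and -0.08. Libraries with unlike numbers were not compared, so these values cannot say whether the numbers pair the samples. Under the block LOC_Os02g02400 lost its rescaled call (limma adjusted p = 0.0597).

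For the 46 genes named by rule, 1366 of 1466 alternatives left direction and call as they were, 41 ended a call, 32 added one and 27 turned the sign of a log2 fold change that was called in neither. With quantile normalization these were ARF24 (-0.17), DREB2A (-0.14), DREB2B (-0.14), HOX10 (-0.50), NFYB3 (-0.46), NFYB4 (-0.29), Os01g0693400 (-0.74), SPL6 (-0.073) and Ubq (-0.015). With an equal total without the 100 highest genes they were ARF24 (-0.31), ARF4 (-0.044), DREB2B (-0.0093), HOX10 (-0.39), NFYB3 (-0.12), Os01g0693400 (-0.61), SPL6 (-0.043) and Ubq (-0.66). With a mean of at least 5 FPKM ARF25 was at 0.036 after rescaling. Leaving out 1 library at a time, the rescaled change of ARF25 ran from -0.15 to 0.027, of NFYB2 from -0.11 to 0.14 and of NFYB4 from -0.24 to 0.0088, and as deposited that of Os01g0693400 from -0.046 to 0.14 and of Ubq from -0.012 to 0.051. Without a filter on low values the rescaled calls of LOC_Os05g41970 (adjusted p = 0.0512), LOC_Os02g02400 (0.0676) and LOC_Os12g36880 (0.0795) were lost, and with quantile normalization in place of FPKM as deposited LOC_Os05g41970 was not called (limma adjusted p = 0.0743). Their causes were not tested.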
